A study of Mus musculus with 8 samples.

Results

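The hypoxia and glycolysis genes described here were 39 mouse genes, chosen by symbol among the 56953 gene identifiers of the count table. They comprised 16 glycolytic enzymes, 3 carriers of glucose or lactate and 20 regulatory targets of the hypoxia-inducible factors. Counted among these targets is Hif1a, the gene of the factor HIF-1α itself. The symbols matched 40 identifiers, because Aldoa was listed under a pair of them; the abundant one, ENSMUSG00000030695, is used throughout, and the other held fewer than 6 CPM in every library. The RNA came from CT26 material, a colorectal carcinoma line of the mouse, grown either as tumours or in culture. The tumours had been treated with normal saline or with mLJZD, an agent whose abbreviation is not expanded in the labels. The cultures had received for 48 h medium with either 10% control serum or 10% serum containing mLJZD. The labels mark both control groups as WT and name no genetic change. The host strain and age, the dose and length of the tumour treatment, and the animals that gave the serum are not stated in the labels. The title of the series names nobiletin, and the sources used here do not say how it relates to mLJZD. Each of the 4 groups had 2 libraries. Whether they stem from different animals or culture dishes is not stated, and p-values therefore reflect the spread among libraries only, which may be technical.

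Glycolysis converts glucose to pyruvate in the cytosol, and lactate dehydrogenase then reduces pyruvate to lactate, which leaves the cell through monocarboxylate carriers. When oxygen is scarce, the prolyl hydroxylases encoded by the Egln genes no longer mark HIF-1α for destruction, and the stabilised factor pairs with its partner ARNT and binds hypoxia response elements near its target genes. Those targets include most glycolytic enzymes and also genes for vessel growth, acid-base balance, mitophagy and feedback on the pathway itself, and many solid tumours express them.

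Library totals ran from 16594912 to 29363861 counts, and levels are given in CPM, the count divided by the library total and scaled to the usual common sum, so that a level of 1 CPM rested on at least 16 counts. In the cultures the labelled cell type could be checked only in part: of 11 markers of colorectal epithelium, Epcam, Cdh1 and Cdx1 had no count in either control culture, and Epcam, Vil1 and Cdx1 had none in either mLJZD culture. The summed level of those 11 markers was 188 and 175 CPM in control cultures and 301 and 296 CPM in saline tumours. With mLJZD it was 240.0 and 239 CPM in cultures, where 1 of 6 tested markers rose and 1 fell, and 184 and 186 CPM in tumours, where 3 of 5 fell and none rose. The tumours were bulk tissue, in which fewer cells of a type and less RNA per cell cannot be told apart.

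Promoter sequence is shown for a few members because the binding site of the hypoxia-inducible factors has a short core, ACGTG or GCGTG, that can be read directly. Sequences come from RefSeq, build GRCm38.p6, and each is the stretch of 150 bases before an annotated start, 5′ to 3′ on the gene's own strand. Capitals mark a core on either strand, so CACGT and CACGC are the same cores read from the other strand, and CACGTG holds ACGTG on both strands and counts as 2. Car9 (chr4:43506876-43507025, plus strand), Slc2a1 (chr4:119108595-119108744, plus strand), Ldha (chr7:46845654-46845803, plus strand), Pgk1 (chrX:106186950-106187099, plus strand), Bnip3 (chr7:138909507-138909656, minus strand) and Ankrd37 (chr8:45999851-46000000, minus strand) are printed because they were called higher in tumours and lower in cultures. The culture call of Slc2a1 was lost under several alternatives, given below. Hk2 (chr6:82774455-82774604, minus strand) is printed because it rose in both, and Car12 (chr9:66713536-66713685, plus strand) because it was called higher in cultures and not in tumours and holds no core in this window.
Car9: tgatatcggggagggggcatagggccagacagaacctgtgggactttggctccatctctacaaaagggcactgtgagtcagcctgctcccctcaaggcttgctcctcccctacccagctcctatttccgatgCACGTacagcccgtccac
Slc2a1: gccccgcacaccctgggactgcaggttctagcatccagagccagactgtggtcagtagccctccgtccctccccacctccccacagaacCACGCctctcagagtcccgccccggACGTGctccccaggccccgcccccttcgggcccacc
Ldha: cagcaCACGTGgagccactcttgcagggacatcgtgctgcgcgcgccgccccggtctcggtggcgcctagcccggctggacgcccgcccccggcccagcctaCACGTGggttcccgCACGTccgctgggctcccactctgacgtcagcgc
Pgk1: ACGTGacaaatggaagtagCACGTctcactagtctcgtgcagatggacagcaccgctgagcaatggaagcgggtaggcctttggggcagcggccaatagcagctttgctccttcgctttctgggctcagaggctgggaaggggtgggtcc
Bnip3: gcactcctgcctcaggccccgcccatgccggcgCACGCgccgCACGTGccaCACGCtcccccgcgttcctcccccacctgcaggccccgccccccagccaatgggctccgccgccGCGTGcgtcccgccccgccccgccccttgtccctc
Ankrd37: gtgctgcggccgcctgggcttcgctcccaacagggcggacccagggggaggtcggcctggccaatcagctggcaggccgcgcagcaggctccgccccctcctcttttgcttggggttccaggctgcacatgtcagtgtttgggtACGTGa
Hk2: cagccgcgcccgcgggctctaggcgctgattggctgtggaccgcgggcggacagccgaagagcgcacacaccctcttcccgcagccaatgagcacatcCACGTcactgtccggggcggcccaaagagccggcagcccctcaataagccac
Car12: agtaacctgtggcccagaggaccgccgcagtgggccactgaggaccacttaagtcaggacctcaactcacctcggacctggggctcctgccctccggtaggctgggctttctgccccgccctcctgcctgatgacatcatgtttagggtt
The Ldha and Bnip3 windows each hold 5 cores, those of Slc2a1 and Pgk1 hold 2, and those of Car9, Ankrd37 and Hk2 hold 1. Ldha has another annotated start, whose window holds 1. Over 250 bases before their starts Tpi1, Gpi1 and Eno2, which also rose in tumours and fell in cultures, held no core, and Pfkfb4, which shares the call pattern of Car12, held 1.

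Of the 39 members, 36 were found in the promoter table, with 54 starts; Ndrg1, Slc2a3 and Bnip3l were not, and Ero1l was matched under its newer name Ero1a. Over the full 250 bases before a start, at least 1 core stood in 41 of 54 windows (75.9%) and in 32 of 36 genes (88.9%). Among the other genes tested in tumours it stood in 53.2% of 13677 windows and in 59.1% of 10735 genes. Among all genes of the table it stood in 38.6% of windows and 41.5% of genes. By role, 13 of 16 enzymes and 17 of 18 regulatory targets held a core. The ACGTG form alone was in 26 of 54 member windows (48.1%) against 20.7% of windows of the other tested genes, and the GCGTG form in 27 of 54 against 42.3%. These are counts of letters; base composition was not matched, the members were picked partly as known targets, and a match is not a bound site.

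The 16 enzymes together held 0.981 ± 0.0146% of all counts (SD, n = 2) in saline tumours, 1.37 ± 0.0136% in mLJZD tumours, 2.23 ± 0.0402% in control cultures and 1.60 ± 0.0534% in mLJZD cultures. The share was therefore lowest in saline tumours and highest in control cultures, and the mLJZD group of each material lay between them without overlap. The order from control culture through mLJZD culture and mLJZD tumour down to saline tumour held in CPM for 8 of 16 enzymes (Pfkl, Tpi1, Gapdh, Pgk1, Pgam1, Eno1, Pkm and Ldha), each time with no overlap between neighbouring groups, beside 3.57% of the 16090 genes in the fit of all 8 libraries. It held for 1 of 20 regulatory targets, P4ha2, and for the lactate exporter Slc16a3. Control cultures had the highest level for 10 of 16 enzymes but for 3 of 20 targets, whereas mLJZD tumours had the highest level for 1 enzyme, Eno2, and for 11 targets. Over all those genes, control cultures were highest for 25.4% and mLJZD tumours for 23.2%. Saline tumours had the lowest level for 13 enzymes and 8 targets, beside 17.3% of all genes.

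**Figure D1:**
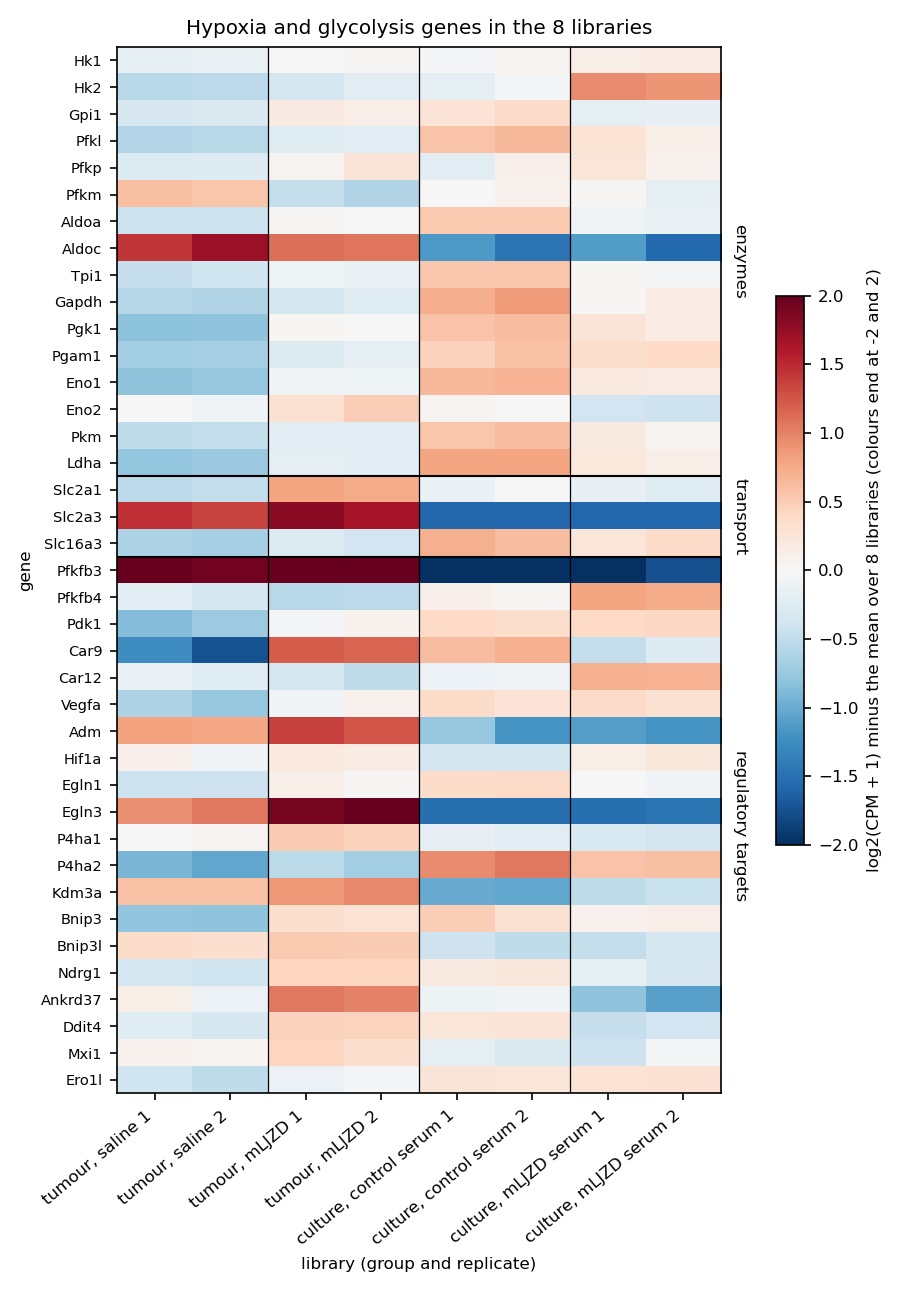
Level of each of the 39 genes (rows) in each of the 8 libraries (columns), as log2(CPM + 1) minus the gene's mean over the libraries; red is above and blue below that mean, and horizontal lines part enzymes, carriers and regulatory targets. Most enzymes are bluest in saline tumours and reddest in control cultures, while Slc2a3, Pfkfb3, Adm and Egln3 are near 0 CPM in all cultures.

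Per transcript length, the summed enzyme level was 11738 ± 127 TPM (counts per transcript length, scaled to a common sum; SD, n = 2) in saline tumours and 16006 ± 64.4 TPM in mLJZD tumours. It was 23495 ± 897 TPM in control cultures and 20233 ± 898 TPM in mLJZD cultures. The tumour ratio was 1.36 in TPM and 1.40 in CPM, and 1.45 when length-scaled values were divided by TMM library sizes, where TMM is the scaling of edgeR that trims extreme genes. The culture ratio was 0.861 in TPM, 0.718 in CPM and 0.645 on TMM library sizes, so its size depended on the scale while its direction did not. The 20 regulatory targets summed to 1255 ± 38.6 TPM in saline tumours and 1845 ± 29.5 TPM in mLJZD tumours. In cultures their sum was 1505 ± 17.01 TPM with control serum and 1611 ± 19.8 TPM with mLJZD serum, higher in TPM, while the CPM sums were 2480.1 ± 17.9 and 2267 ± 4.17, lower with mLJZD. The direction of the target sum in cultures was thus set by the scale. By TPM, Pkm, Ldha and Eno1, which act at the end of the pathway, were the most abundant members in saline tumours, at 2201, 2058 and 1677 TPM. In control cultures Ldha led with 5187 TPM.

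In tumours, mLJZD was tested against saline with edgeR's quasi-likelihood test, and a gene was called at a Benjamini-Hochberg adjusted p under 0.05 over all genes tested. All 39 members were tested: 34 were higher with mLJZD and 2 were lower, against a background of 15.4% of 15417 genes higher and 16% lower. The median log2 fold change of the members was 0.46 beside 0.00 over all genes. Of the 16 enzymes 14 rose and 2 fell, with a median of 0.42. Of the 20 regulatory targets 18 rose and none fell, with a median of 0.61, and 2 of the 3 carriers rose. The 3 genes without a call were Pfkfb4, Car12 and Slc2a3.

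Among the tumour enzymes, Pgk1 (ENSMUSG00000062070), the first ATP-making step, showed the largest rise. Its level was 943 and 958 CPM in saline tumours and 1728 and 1672 CPM in mLJZD tumours. Both mLJZD libraries were well above both saline libraries, a log2 fold change of 0.87 (± 0.03 SE, adjusted p = 1.32e-12 by edgeR). Eno1 (ENSMUSG00000063524), an enolase, went from 1365 and 1409 CPM to 2296 and 2257 CPM, again without overlap, a log2 fold change of 0.75 (± 0.03 SE, adjusted p = 2.53e-12 by edgeR). Ldha (ENSMUSG00000063229), the subunit of lactate dehydrogenase that favours lactate formation, had 1508 and 1539 CPM with saline and 2261 and 2204 CPM with mLJZD. The groups stood apart, with a log2 fold change of 0.58 (± 0.03 SE, adjusted p = 7.12e-11 by edgeR). The other 11 enzymes that rose were Hk1, Hk2, Gpi1, Pfkl, Pfkp, Aldoa, Tpi1, Gapdh, Pgam1, Eno2 and Pkm, with log2 fold changes from 0.21 in Hk1 to 0.48 in Gpi1. Both hexokinases moved little, and their rises kept their sign in fits with a library dropped. The log2 fold change of Hk1 was 0.18 once saline replicate 1 was dropped. Dropping either mLJZD tumour library gave 0.21. For Hk2, at 0.29 in the full fit, dropping mLJZD replicate 1 gave 0.35 and dropping replicate 2 gave 0.24. Both calls ended in these fits, which keep 1 library in a group and so cannot decide whether a call rests on any library.

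The 2 enzymes that fell in tumours were Pfkm (ENSMUSG00000033065), the muscle-type phosphofructokinase, and Aldoc (ENSMUSG00000017390), the brain-type aldolase. Pfkm had 106 and 104 CPM with saline and 49.99 and 45.6 CPM with mLJZD, the reverse of its paralogues Pfkl and Pfkp. Its log2 fold change was -1.10 (± 0.06 SE, adjusted p = 1.28e-10 by edgeR). Aldoc had 8.53 and 10.6 CPM with saline and 6.66 and 6.45 CPM with mLJZD. That difference was -0.51 (± 0.16 SE, adjusted p = 0.0195 by edgeR) on the log2 scale, and the adjusted p was 0.265 without saline replicate 2, 0.201 without mLJZD replicate 1 and 0.211 without mLJZD replicate 2. Skeletal muscle markers moved in the direction of Pfkm: 13 of 15 tested fell and 1 rose, and their sum was 3221 and 3259 CPM with saline and 599.9 and 599 CPM with mLJZD, with Tnnc2 at 0 in both groups. Other isozymes known from muscle also fell, among them Pgam2, the muscle phosphoglycerate mutase, at 23.4 and 19.4 CPM with saline and 8.24 and 6.93 CPM with mLJZD, a log2 fold change of -1.46 (± 0.14 SE, adjusted p = 3.47e-07 by edgeR). Slc2a4, the insulin-responsive glucose carrier of muscle and fat, was lower by a log2 fold change of -2.46 (± 0.38 SE, adjusted p = 8.73e-05 by edgeR). Eno3, the muscle enolase, fell less, by a log2 fold change of -0.35 (± 0.05 SE, adjusted p = 7.6e-05 by edgeR). It had 133.5 and 127.5 CPM with saline and 102 and 98.3 CPM with mLJZD. Unlike Slc2a4 and Pgam2, Eno3 was higher in control cultures than in saline tumours, at 368 and 368 CPM. The part of muscle tissue in the change of Pfkm was not tested.

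In cultures the enzymes went the other way. Of the 36 members tested there, 6 were higher with mLJZD serum and 21 lower, against a background of 28.8% of 13299 genes higher and 26.6% lower. The median log2 fold change was -0.28 over the members and -0.01 over all genes. Of the 16 enzymes 11 fell and 1 rose (median -0.48), of the 18 targets tested 8 fell and 5 rose (median -0.03), and both carriers tested fell. Slc2a3, Adm and Egln3 had too few counts in cultures to be tested.

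Ldha had 4466 and 4464 CPM in control cultures and 2966 and 2809 CPM in mLJZD cultures. The mLJZD cultures were lower without overlap, by a log2 fold change of -0.69 (± 0.08 SE, adjusted p = 3.11e-06 by edgeR). Pgk1 went from 2484 and 2569 CPM to 1999 and 1855 CPM, a log2 fold change of -0.45 (± 0.08 SE, adjusted p = 0.00017 by edgeR). Both mLJZD cultures still exceeded both mLJZD tumours for these genes. The other enzymes that fell were Gpi1, Pfkl, Aldoa, Tpi1, Gapdh, Pgam1, Eno1, Eno2 and Pkm, from -0.21 in Pgam1 to -0.75 in Gapdh. Hk2 (ENSMUSG00000000628), the inducible hexokinase that traps glucose in the cell, was the exception: 96.9 and 108 CPM with control serum and 212 and 203 CPM with mLJZD serum. Its libraries were far apart, with a log2 fold change of 0.96 (± 0.08 SE, adjusted p = 1.6e-07 by edgeR), and mLJZD cultures had the highest Hk2 level of the 4 groups. The call for Pgam1 ended without control replicate 2 (adjusted p = 0.196) and without mLJZD replicate 1 (adjusted p = 0.0821). Hk1 (log2 0.08), Pfkp (0.16), Pfkm (-0.18) and Aldoc (-0.19) did not pass the test. Pfkp passed without control replicate 2 (adjusted p = 0.0161) or mLJZD replicate 2 (0.0393), and Pfkm without mLJZD replicate 1 (0.022).

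A trend of the culture changes with transcript length was known beforehand, and its size is not given here. The results for the members moved when a trend with length and GC content was removed. A smooth trend of the counts on those properties was fitted per library and removed as an offset. With it removed, 5 members were higher and 19 lower, beside 21.5% and 18% of all genes. Enzymes then had 2 higher and 8 lower with a median of -0.14, and targets 3 higher and 10 lower with a median of -0.25, so the order of the medians of enzymes and targets was inverted. The falls of Ldha at -0.36 (± 0.06 SE, adjusted p = 0.000513 by edgeR), Pgk1 at -0.20 (± 0.06 SE, adjusted p = 0.0241 by edgeR) and Gapdh at -0.62 (± 0.07 SE, adjusted p = 5.59e-05 by edgeR) stayed past the test. Those of Aldoa (log2 -0.11, edgeR adjusted p = 0.143), Eno1 (-0.06, 0.45) and Pkm (-0.09, 0.26) did not, and Pgam1 turned to 0.19 and Pfkp to -0.65. Hk2 kept its rise at 0.67 (± 0.06 SE, adjusted p = 1.35e-05 by edgeR). In tumours the same correction gave 35 higher and 2 lower, with 18.1% and 15.5% of all genes.

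**Figure D2:**
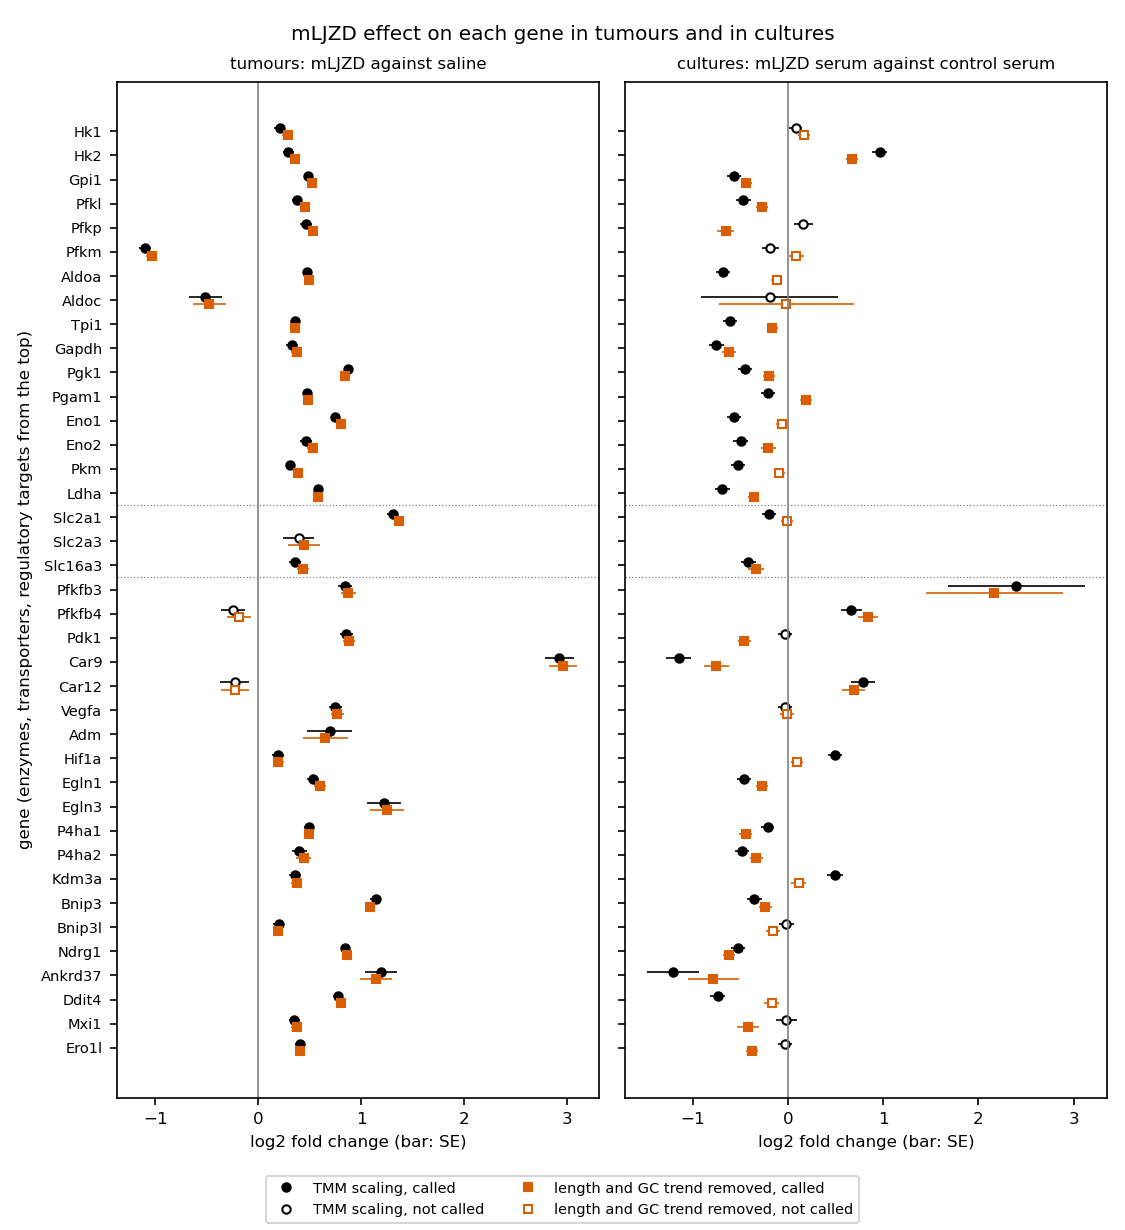
Log2 fold change with mLJZD for each gene in tumours (left) and in cultures (right), with bars of 1 SE, from fits of 2 libraries against 2; black circles use TMM scaling, orange squares have the length and GC trend removed, and open symbols did not pass an adjusted p under 0.05. In tumours nearly all symbols lie right of 0 under both scalings, Pfkm at -1.10 and Car9 at 2.92 being the extremes. In cultures most enzymes lie left of 0 and move towards 0 when the trend is removed.

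The carriers bring glucose in and take lactate out. Slc2a1 (ENSMUSG00000028645), which encodes the glucose carrier GLUT1, had 128 and 131 CPM in saline tumours and 319 and 308 CPM in mLJZD tumours. Its level was higher without overlap, a log2 fold change of 1.31 (± 0.05 SE, adjusted p = 6.46e-12 by edgeR), and mLJZD tumours held the highest level of the 4 groups. In cultures it had 167 and 184 CPM with control serum and 165 and 154 CPM with mLJZD serum. The difference of -0.19 (± 0.08 SE, adjusted p = 0.0413 by edgeR) was small, and was -0.13 without control replicate 2 and -0.14 without mLJZD replicate 2. By edgeR it did not pass with the trend removed (adjusted p = 0.967), library totals alone (0.153), no filter (0.0512) or a replicate block (0.0502). Nor did it pass with the DESeq2 Wald test (adjusted p = 0.0558). In TPM the Slc2a1 mean was 114 with control serum and 125 with mLJZD serum. Slc16a3 (ENSMUSG00000025161), the lactate exporter MCT4, had 65.3 and 64.2 CPM with saline and 83.8 and 78.1 CPM with mLJZD in tumours, and 167 and 158 CPM with control serum and 120.2 and 133 CPM with mLJZD serum in the cultures. It rose in tumours by a log2 fold change of 0.36 (± 0.05 SE, adjusted p = 7.42e-05 by edgeR), with an adjusted p of 0.0504 without mLJZD replicate 1. It fell in cultures by a log2 fold change of -0.42 (± 0.08 SE, adjusted p = 0.000398 by edgeR). Slc2a3, the high-affinity carrier GLUT3, had 7.16 and 6.57 CPM with saline and 9.33 and 8.26 CPM with mLJZD in tumours and no count in any culture. The tumour difference of 0.39 (± 0.15 SE, adjusted p = 0.0605 by edgeR) did not pass, although it did with the trend removed (adjusted p = 0.0339 by edgeR). Saline tumours were at least 104-fold higher than control cultures, taking 3 counts over the group as the floor, which covers counting error only.

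Of the 3 targets that steer flux into or out of glycolysis, 2 rose in tumours, beside 15.4% of all genes. Pdk1 (ENSMUSG00000006494), the kinase that shuts pyruvate dehydrogenase and so keeps pyruvate from the mitochondria, had 44.1 and 48.3 CPM with saline and 78.7 and 84.8 CPM with mLJZD. The tumour groups did not overlap, with a log2 fold change of 0.86 (± 0.06 SE, adjusted p = 1.05e-08 by edgeR). The cultures overlapped at 107 and 104 CPM with control serum and 107 and 108 CPM with mLJZD serum (log2 -0.03, adjusted p = 0.76 by edgeR). With the length and GC trend removed, however, Pdk1 was called lower in mLJZD cultures (log2 -0.46, adjusted p = 0.000343 by edgeR). Pfkfb3 and Pfkfb4 make and break down the sugar bisphosphate that activates phosphofructokinase. Pfkfb3 (ENSMUSG00000026773) had 28.3 and 27.1 CPM with saline and 47.5 and 49.8 CPM with mLJZD in tumours, a log2 fold change of 0.84 (± 0.07 SE, adjusted p = 8.28e-08 by edgeR). In cultures it was close to absent, at 0.128 and 0.180 CPM with control serum and 0.489 and 1.19 CPM with mLJZD serum. That culture change of 2.40 (± 0.72 SE, adjusted p = 0.0111 by edgeR) rested on 3 and 4 counts against 10 and 35 counts, and its adjusted p was 0.0641 without control replicate 1 and 0.33 without mLJZD replicate 2. Pfkfb4 (ENSMUSG00000025648) went the other way round: 16.7 and 15.1 CPM with saline and 12.9 and 13.3 CPM with mLJZD in tumours, a difference of -0.25 (± 0.12 SE, adjusted p = 0.123 by edgeR) that did not pass. In cultures it stood at 21.1 and 19.8 CPM with control serum and 34.5 and 33.3 CPM with mLJZD serum. The mLJZD cultures had the highest level of the 4 groups, with a log2 fold change against control cultures of 0.67 (± 0.11 SE, adjusted p = 0.000113 by edgeR).

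Car9 had the largest change of all members in tumours. It encodes carbonic anhydrase IX, a surface enzyme of acid-base balance that is a standard hypoxia marker. Car9 (ENSMUSG00000028463) had 5.79 and 3.79 CPM in saline tumours and 36.02 and 35.01 CPM in mLJZD tumours. Control cultures had 23.6 and 25.3 CPM and mLJZD cultures 10.5 and 12.4 CPM. No groups overlapped, and the mLJZD effect had opposite signs, with a log2 fold change of 2.92 (± 0.14 SE, adjusted p = 6.5e-11 by edgeR) in tumours and of -1.15 (± 0.13 SE, adjusted p = 5.84e-06 by edgeR) in cultures. Saline tumours were thus the lowest group and differed from control cultures by a log2 value of -2.51 (± 0.17 SE, adjusted p = 1.52e-07 by edgeR). With the trend removed the culture fall was -0.75 (± 0.13 SE, adjusted p = 0.000768 by edgeR). Car12 (ENSMUSG00000032373), which encodes another membrane carbonic anhydrase, had 11.7 and 10.9 CPM with saline and 9.99 and 8.80 CPM with mLJZD in tumours, and 11.95 and 12.3 CPM with control serum and 21.97 and 21.7 CPM with mLJZD serum in the cultures. It rose in cultures by a log2 fold change of 0.79 (± 0.13 SE, adjusted p = 0.000113 by edgeR) and did not pass in tumours (-0.23, edgeR adjusted p = 0.222).

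Of the secreted factors, Vegfa (ENSMUSG00000023951), which drives vessel growth, had 109.8 and 99.02 CPM with saline and 163 and 179.6 CPM with mLJZD in tumours. The groups did not overlap, with a log2 fold change of 0.75 (± 0.06 SE, adjusted p = 1.02e-07 by edgeR). Cultures had 218 and 205 CPM with control serum and 221 and 209 CPM with mLJZD serum, which overlapped (log2 -0.03, edgeR adjusted p = 0.728). Adm, which encodes the vasodilator adrenomedullin, was low throughout, at 2.95 and 2.88 CPM with saline and 4.80 and 4.40 CPM with mLJZD in tumours. Its tumour call, a log2 fold change of 0.69 (± 0.22 SE, adjusted p = 0.0213 by edgeR), ended when any single tumour library was left out, with adjusted p values of 0.0772 and 0.101 without saline replicate 1 and 2 and of 0.14 and 0.0742 without mLJZD replicate 1 and 2.

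**Figure D3:**
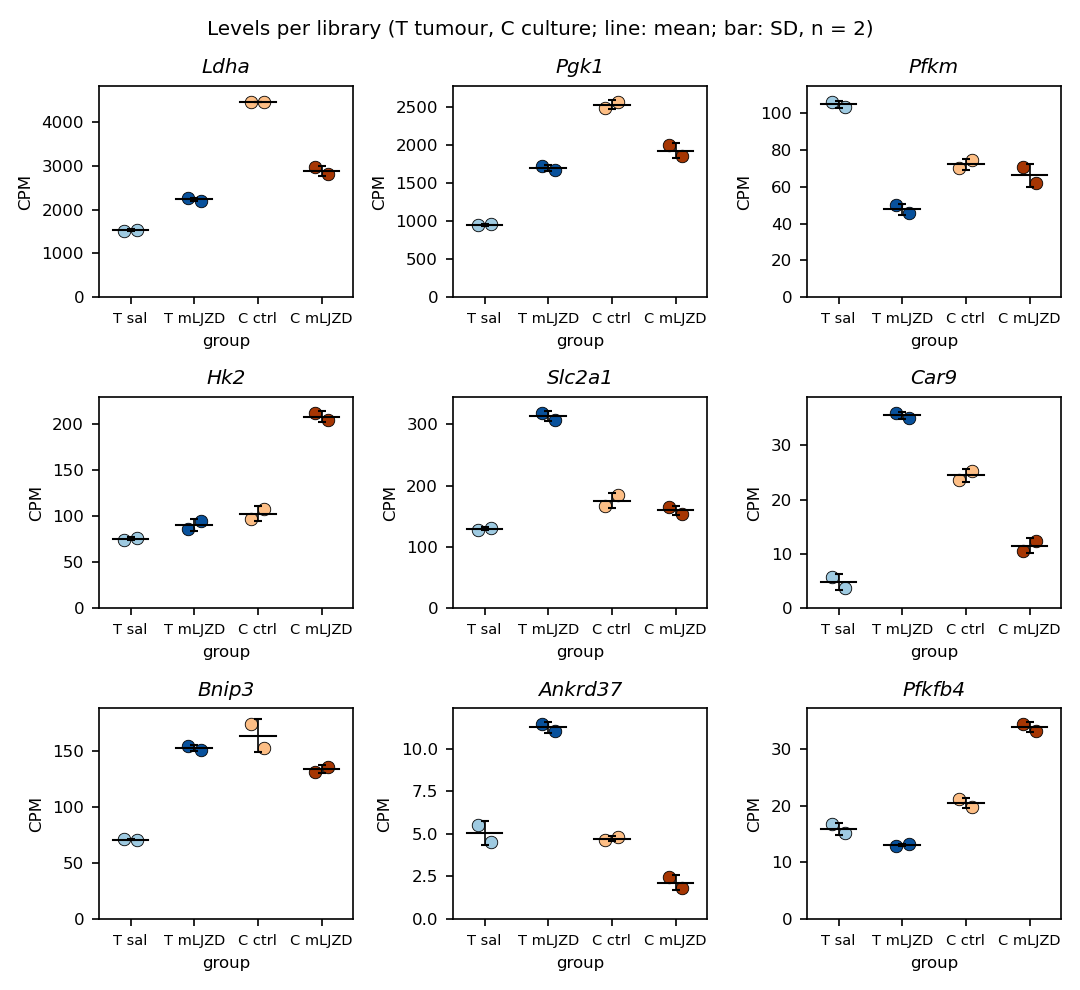
CPM of 9 members in each library (points), by group, with the group mean (line) and SD of 2 libraries (bar); T is tumour and C is culture, and each axis starts at 0. Ldha and Pgk1 stand highest in control cultures, Car9, Slc2a1 and Ankrd37 stand highest in mLJZD tumours, and Hk2 and Pfkfb4 stand highest in mLJZD cultures.

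All 6 genes of oxygen sensing and the related hydroxylases rose in tumours, beside 15.4% of all genes. Egln1 (ENSMUSG00000031987), the main oxygen-sensing prolyl hydroxylase, had 105 and 105 CPM with saline and 153 and 143 CPM with mLJZD, a log2 fold change of 0.53 (± 0.06 SE, adjusted p = 1.54e-06 by edgeR). In cultures it fell from 182 and 185 CPM to 143 and 135 CPM, by a log2 fold change of -0.46 (± 0.07 SE, adjusted p = 8.07e-05 by edgeR). Neither pair of groups overlapped. Egln3 (ENSMUSG00000035105), a hydroxylase that is itself induced by hypoxia, had 4.37 and 4.95 CPM with saline and 9.71 and 11.6 CPM with mLJZD in tumours, a log2 fold change of 1.22 (± 0.16 SE, adjusted p = 1.78e-05 by edgeR). It had no count in control cultures and 1 count in mLJZD cultures, and mLJZD tumours were at least 161-fold higher than control cultures. Hif1a (ENSMUSG00000021109), whose protein is regulated mainly by its stability, had 178 and 158 CPM with saline and 190.0 and 184 CPM with mLJZD in tumours. Its small rise of 0.19 (± 0.06 SE, adjusted p = 0.0234 by edgeR) on the log2 scale did not pass without saline replicate 2 (adjusted p = 0.393) or without mLJZD replicate 1 (0.324) or 2 (0.163), nor with library totals alone (0.055). In cultures Hif1a had 128 and 128 CPM with control serum and 181 and 194 CPM with mLJZD serum. That rise of 0.50 (± 0.07 SE, adjusted p = 4.53e-05 by edgeR) fell to 0.09 (± 0.06 SE, adjusted p = 0.264 by edgeR) with the trend removed.

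P4ha1 (ENSMUSG00000019916) and P4ha2 (ENSMUSG00000018906) encode the catalytic subunits of the enzyme that hydroxylates collagen. P4ha1 had 227 and 234 CPM with saline and 322 and 312 CPM with mLJZD in tumours, and 202 and 196 CPM with control serum and 183 and 175 CPM with mLJZD serum in the cultures. Its log2 fold change was 0.49 (± 0.05 SE, adjusted p = 9.71e-07 by edgeR) in tumours and -0.21 (± 0.07 SE, adjusted p = 0.0205 by edgeR) in cultures, where the call ended without control replicate 1 (adjusted p = 0.155) or mLJZD replicate 2 (0.11). P4ha2 had 38.2 and 34.8 CPM with saline and 49.5 and 44.6 CPM with mLJZD in tumours, far under the 141 and 152 CPM of control cultures and 108 and 110.5 CPM of mLJZD cultures. It rose in tumours by a log2 fold change of 0.40 (± 0.08 SE, adjusted p = 0.000534 by edgeR), a call lost without mLJZD replicate 1 (adjusted p = 0.116), and fell in cultures with one of -0.48 (± 0.07 SE, adjusted p = 8.11e-05 by edgeR). Kdm3a (ENSMUSG00000053470), a histone demethylase induced by hypoxia, rose in both materials. It had 115 and 114 CPM with saline and 138 and 148 CPM with mLJZD in tumours and 37.2 and 36.4 CPM with control serum and 52.9 and 55.1 CPM with mLJZD serum in cultures, with log2 fold changes of 0.36 (± 0.06 SE, adjusted p = 8.85e-05 by edgeR) and 0.50 (± 0.09 SE, adjusted p = 0.000244 by edgeR). The culture rise was 0.11 (± 0.08 SE, adjusted p = 0.296 by edgeR) with the trend removed.

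The 7 targets of mitophagy, growth control and protein folding all rose in tumours, beside 15.4% of all genes. In cultures 4 of them fell, beside 26.6% of all genes. With the trend removed 5 fell there, beside 18%. Bnip3 (ENSMUSG00000078566), a mitophagy receptor, had 71.5 and 70.8 CPM with saline and 155 and 151 CPM with mLJZD in tumours. Its log2 fold change was 1.14 (± 0.05 SE, adjusted p = 2.69e-11 by edgeR), and mLJZD tumours lay in the range of the cultures, which had 175 and 154 CPM with control serum and 131 and 137 CPM with mLJZD serum. In cultures it fell by a log2 fold change of -0.35 (± 0.08 SE, adjusted p = 0.00206 by edgeR). Bnip3l (ENSMUSG00000022051), its close relative, had 147 and 143 CPM with saline and 164 and 162 CPM with mLJZD. The difference was 0.20 (± 0.05 SE, adjusted p = 0.00969 by edgeR) on the log2 scale, and its adjusted p was 0.124 without saline replicate 2, 0.104 without mLJZD replicate 1 and 0.0517 without mLJZD replicate 2.

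Ndrg1 (ENSMUSG00000005125), a stress-responsive gene long used as a hypoxia marker, had 370.4 and 359.8 CPM with saline and 638 and 641 CPM with mLJZD in tumours. Cultures had 538 and 556 CPM with control serum and 414 and 379.7 CPM with mLJZD serum. The highest group was mLJZD tumours, and the log2 fold changes were 0.84 (± 0.04 SE, adjusted p = 8.93e-11 by edgeR) in tumours and -0.52 (± 0.08 SE, adjusted p = 4.07e-05 by edgeR) in cultures. Ddit4 (ENSMUSG00000020108), which restrains mTORC1, had 65.6 and 62.4 CPM with saline and 107 and 107 CPM with mLJZD in tumours, a log2 fold change of 0.77 (± 0.05 SE, adjusted p = 2.51e-09 by edgeR). In cultures it went from 91.9 and 93.2 CPM to 56.4 and 59.4 CPM, a log2 fold change of -0.73 (± 0.08 SE, adjusted p = 2.66e-06 by edgeR), but of -0.17 (± 0.08 SE, adjusted p = 0.108 by edgeR) with the trend removed. Ankrd37 (ENSMUSG00000050914), an ankyrin-repeat gene that is a direct HIF-1 target, had 5.54 and 4.55 CPM with saline and 11.5 and 11.03 CPM with mLJZD in tumours. In cultures it had 4.61 and 4.82 CPM with control serum and 2.45 and 1.84 CPM with mLJZD serum. The log2 fold changes were 1.19 (± 0.16 SE, adjusted p = 1.43e-05 by edgeR) and -1.21 (± 0.27 SE, adjusted p = 0.00172 by edgeR), and the tumour call ended without mLJZD replicate 1 (adjusted p = 0.0579). Mxi1, an antagonist of MYC, and Ero1l, the oxidase that recharges disulphide formation in the endoplasmic reticulum, rose in tumours by log2 fold changes of 0.35 (± 0.05 SE, adjusted p = 5.72e-05 by edgeR) and 0.41 (± 0.05 SE, adjusted p = 6.26e-06 by edgeR), Mxi1 with an adjusted p of 0.0534 without mLJZD replicate 1. In cultures they did not pass with TMM (log2 -0.02 and -0.03), but fell with the trend removed (-0.42, edgeR adjusted p = 0.0116, and -0.37, edgeR adjusted p = 0.000504).

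The tumour and culture comparisons share no library, and 21 members were higher in tumours and lower in cultures. Among the 12694 genes tested in both, 6.24% showed that combination. The 21 comprised 11 enzymes, both tested carriers and 8 targets. With the trend removed the count was 19, beside 4.99% of genes, but the genes were partly others. Aldoa, Pgam1, Eno1, Pkm, Slc2a1 and Ddit4 then dropped out, and Pfkp, Pdk1, Mxi1 and Ero1l entered. Targets then outnumbered enzymes in this combination. Hk2, Pfkfb3, Hif1a and Kdm3a were higher in both (4.17% of genes), and with the trend removed Hk2, Pgam1 and Pfkfb3 were (4.36%). No member was lower in both, a combination shown by 3.7% of genes, or by 2.9% with the trend removed. None was lower in tumours and higher in cultures, beside 7.03% of genes, or 4.44% with the trend removed.

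The difference between the mLJZD effect in tumours and that in cultures was put to an interaction test on the 8 libraries. It was higher in tumours for 29 members and lower for 5, against 23.8% and 20.5% of 16090 genes. The 29 comprised 13 of 16 enzymes, 14 of 20 targets and 2 of 3 carriers, and the 5 were Hk2, Pfkm, Pfkfb3, Pfkfb4 and Car12. The largest difference was that of Car9, 4.15 (± 0.21 SE, adjusted p = 4.43e-10 by edgeR) on the log2 scale, followed among genes with counts in every library by Ankrd37 at 2.49 (± 0.29 SE, adjusted p = 2.26e-06 by edgeR). Bnip3 differed by 1.57 (± 0.10 SE, adjusted p = 5.13e-09 by edgeR), Pgk1 by 1.40 (± 0.08 SE, adjusted p = 7.72e-10 by edgeR) and Ldha by 1.35 (± 0.07 SE, adjusted p = 6.78e-10 by edgeR). The median difference was 0.99 over the enzymes and 0.83 over the targets, beside 0.07 over all genes; with the trend removed these were 0.80, 0.88 and 0.07, so which arm came first depended on the trend. With it removed 29 members were higher and 4 lower, beside 20.9% and 14.6% of genes. Scaling by library totals alone moved the median of all genes in this test to -0.095. Pfkfb3 no longer passed with the trend removed (edgeR adjusted p = 0.0838) or, for 6 of the 8 libraries, with that library left out, its difference being -0.65 (adjusted p = 0.486) without mLJZD culture replicate 2. Adm, with 8 counts in 1 control culture and 0 in the other, and Slc2a3 and Egln3, with 0 or 1 count per culture group, give no usable culture effect.

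Saline tumours were compared with control cultures to place the untreated levels. This contrast uses the control libraries of both treatment comparisons, so its values are not independent of theirs. Of the 39 members 26 were lower in saline tumours and 9 higher, against 35.7% and 44.9% of 15332 genes. Among enzymes 14 were lower, with a median log2 difference of -1.13, beside 0.15 for all genes; among targets 10 were lower and 6 higher, with a median of -0.40. The enzyme furthest below was Ldha, at -1.71 (± 0.05 SE, adjusted p = 6.01e-10 by edgeR), and Pfkm and Aldoc were the enzymes that were higher. Car9 at -2.51 and P4ha2 at -2.17 were the targets furthest below, and Pfkfb3 at 7.28 and Kdm3a at 1.47 were above, besides Adm, Egln3 and Slc2a3 with few or no counts in cultures. Scaling by library totals alone shifted the median of all genes to 0.315 and left 25 lower and 11 higher. With the trend removed 28 were lower and 8 higher, beside 35.4% and 42.5% of genes, and the direction turned for Eno2 (0.01 in place of -0.22), Hif1a (-0.12 in place of 0.23), P4ha1 and Mxi1. The call of Eno2 ended without saline tumour replicate 2 (adjusted p = 0.114), and that of Hif1a without saline tumour replicate 1 (0.117) or control culture replicate 1 (0.0706) or 2 (0.108). Macrophage, endothelial and T cell markers were present in tumours and near 0 in cultures; the macrophage sum was 2276 and 2289.7 CPM in saline tumours and 18.2 and 14.2 CPM in control cultures. Their part in the contrast was not tested.

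Members with a close relative in the set also shifted their balance, given here as a share of the summed TPM of the family (SD, n = 2). Pfkm held 37.3% ± 0.76 of phosphofructokinase RNA in saline tumours and 17.4% ± 1.28 in mLJZD tumours, beside 16.2% ± 0.05 in control cultures and 18.4% ± 0.23 in mLJZD cultures. The mLJZD tumours thus lay near the cultures in this share. Car9 held 43.3% ± 6.01 of the Car9 and Car12 sum in saline tumours and 87.4% ± 0.76 in mLJZD tumours, but 78.8% ± 0.47 in control cultures and 48.98% ± 3.25 in mLJZD cultures. Pfkfb3 held 55.9% ± 0.97 of the sum with Pfkfb4 in saline tumours and 72.96% ± 0.30 in mLJZD tumours, and 0.547% ± 0.15 and 1.78% ± 1.07 in the cultures. Hk2 held between 25.6% and 29.3% of the sum with Hk1 in 3 groups and 43.3% ± 1.01 in mLJZD cultures. The hexokinase Hk3 lies outside the set and was not part of that sum. It had 36.2 and 35.6 CPM in saline tumours, 42.5 and 41.8 CPM in mLJZD tumours and no count in cultures. Bnip3 went from 47.6% ± 0.34 to 63.6% ± 0.27 of the sum with Bnip3l in tumours. P4ha2 held 17.3% ± 1.26 and 16.4% ± 0.70 of the sum with P4ha1 in saline and mLJZD tumours and 49.3% ± 1.96 and 44.7% ± 1.03 in control and mLJZD cultures, so this balance parted tumours from cultures.

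**Figure D4:**
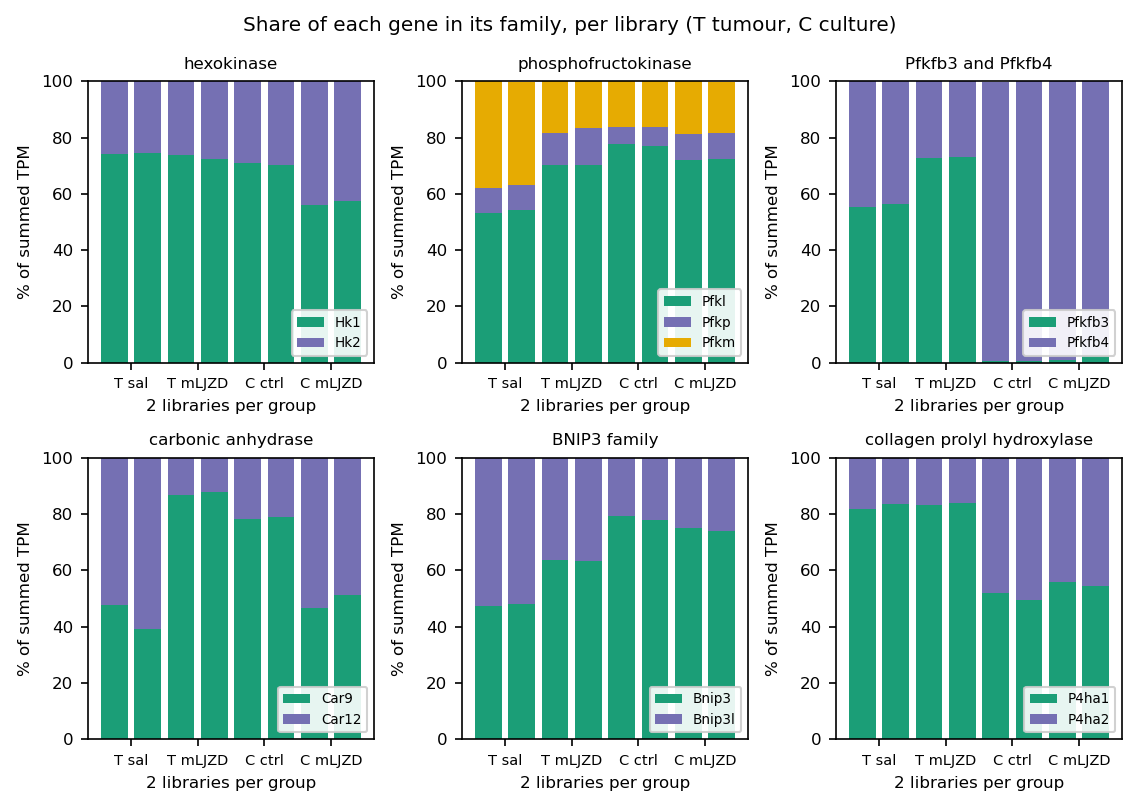
Share of each gene in the summed TPM of its family, counting only genes of the set, stacked to 100% for each of the 8 libraries. Each group has 2 bars, T is tumour and C is culture. Pfkm shrinks from 37.3% to 17.4% of phosphofructokinase RNA between saline and mLJZD tumours, Car9 grows from 43.3% to 87.4% of its pair, and Pfkfb3 is nearly absent in cultures.

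Levels of some members were uncertain because near-identical copies could take their reads; how the authors counted reads with several matches is not given in the sources used here. Stretches of 50 bases shared with annotated transcripts of other genes made up 72.2% of the longest Eno1 transcript, 68% of Pgk1, 62.4% of Bnip3, 41.5% of Pgam1 and 34.4% of Pkm. The genes sharing sequence with Eno1 held 74.2% as many counts as Eno1 itself, while those of Pgk1, Bnip3, Pgam1 and Pkm held at most 1.46%. Gapdh shared sequence with 218 other genes, which held 1660% as many counts as Gapdh itself. It had 46.3 TPM in saline tumours and 105 TPM in control cultures, far below Tpi1 and Pgk1, its neighbours in the pathway, at 1354 and 1277 TPM in saline tumours. Values of Gapdh are therefore uncertain. The 2 genes sharing 11.4% of the Ankrd37 sequence held 969% as many counts as Ankrd37, and the 3 sharing 5.02% of Car9 held 676%, so reads from those stretches are uncertain for both. Slc2a3 and Pfkfb3 shared 1.48% and 0.631% of their sequence, with 178 and 155 other genes that together held many more counts than they did.

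Related pathways were counted from separate gene lists. Of 36 other HIF targets, all tested in tumours, 22 rose and 4 fell with a median of 0.37; in cultures 6 of 29 tested rose and 9 fell. Among all genes 15.4% rose and 16% fell in tumours, and 28.8% rose and 26.6% fell in cultures, so the culture counts of this list lay near the background. Higd1a, a mitochondrial protein induced by hypoxia, had 32.8 and 34.96 CPM with saline and 69.96 and 63.2 CPM with mLJZD in tumours, a log2 fold change of 1.01 (± 0.07 SE, adjusted p = 7.54e-09 by edgeR). Edn1, the vasoconstrictor endothelin, rose by a log2 fold change of 1.07 (± 0.24 SE, adjusted p = 0.00222 by edgeR), and Ppp1r3c, which directs glycogen synthesis, fell by a log2 fold change of -1.83 (± 0.25 SE, adjusted p = 2.14e-05 by edgeR). Of 13 tested genes of the HIF machinery 2 rose in tumours, Vhl at 0.35 (± 0.07 SE, adjusted p = 0.00093 by edgeR) and Cited2 at 0.32 (± 0.05 SE, adjusted p = 4e-05 by edgeR). Another 2 fell, among them the coactivator Ep300 at -0.36 (± 0.06 SE, adjusted p = 0.000133 by edgeR). In cultures 5 of 12 rose and 5 fell, and Ep300 had the largest change, a rise of 1.87 (± 0.09 SE, adjusted p = 2.78e-09 by edgeR). With the trend removed 3 rose and 3 fell there, and Ep300 stood at 1.11. No test between lists was made.

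Pathways that branch from glycolysis or follow it were counted in the same way, beside the shares of all genes just given. Of 17 genes of the tricarboxylic acid cycle 1 rose, Sdhb, and 4 fell (median -0.08), with Fh1 the lowest at -0.40 (± 0.05 SE, adjusted p = 1.55e-05 by edgeR). Of 7 genes of the pentose phosphate pathway none rose and 1 fell, Taldo1 (median -0.01). Of 14 genes of pyruvate entry and lactate handling 5 rose and 4 fell. The pyruvate dehydrogenase kinase Pdk4, abundant in muscle, had 15.3 and 14.04 CPM with saline and 2.51 and 1.69 CPM with mLJZD, a log2 fold change of -2.76 (± 0.19 SE, adjusted p = 4.91e-09 by edgeR), opposite to that of Pdk1 and of the same sign as that of the muscle markers. Of 11 other glycolytic isozymes tested 1 rose and 4 fell, and of 4 gluconeogenic genes 1 rose and 2 fell. In cultures the tricarboxylic acid cycle had 2 genes higher and 9 lower of 17 (median -0.30), but 3 higher and 5 lower (median -0.10) with the trend removed. The pentose phosphate pathway had none higher and 5 lower of 7 (median -0.34), or 4 lower with the trend removed, led by Pgls at -1.39 (± 0.09 SE, adjusted p = 3.24e-08 by edgeR).

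Immediate early, neutrophil, erythroid, proliferation and B cell markers changed in the tumours alongside the members, while macrophage, endothelial and fibroblast markers went both ways. Among all genes 15.4% rose and 16% fell in tumours. The 8 immediate early genes all rose with mLJZD, their sum being 778 and 781 CPM with saline and 1467 and 1477 CPM with mLJZD. Of 9 neutrophil markers tested 7 rose and none fell, from a sum of 20.97 and 21.1 CPM to 42.1 and 39.05 CPM, with Ly6g, Mpo and Elane at 0 in saline tumours. All 5 erythroid markers tested rose, from 22.2 and 18.2 CPM to 47.2 and 43.7 CPM, with Slc4a1 at 0 in saline tumours. Of 7 proliferation genes 6 fell and none rose, from 2296 and 2259 CPM to 1696 and 1696 CPM, and B and plasma cell markers rose in 4 of 7 cases, from 47.8 and 49.1 CPM to 379 and 344 CPM. The macrophage sum was 2276 and 2289.7 CPM with saline and 2218 and 2166 CPM with mLJZD, 3 markers rising and 3 falling. The endothelial sum was 322 and 328 CPM and 333 and 338 CPM, with 1 of 10 markers rising and 1 falling. The fibroblast sum was 3420.1 and 3432 CPM and 3827 and 3742 CPM, with 3 of 10 rising and 2 falling. In cultures the proliferation sum was 1624 and 1659 CPM with control serum and 2139 and 2112 CPM with mLJZD serum, 3 of 7 genes rising and 2 falling. Among all genes 28.8% rose and 26.6% fell in cultures. The immediate early sum there was 435 and 427 CPM and 349.7 and 356 CPM, with 1 of 7 tested genes rising and 4 falling, but 2 rising and none falling with the trend removed. The part of these cells and states, and of the epithelial markers, in the changes of the members was not tested.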

How the data were processed

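Raw gene counts of the 8 libraries were deposited in a single table. The tools named are featureCounts 2.0.3, HISAT2 2.2.1, SAMtools 1.14, FastQC 0.12.1 and Trim Galore, with build GRCm39, per the submitters' processing notes. The annotation release, strand setting and treatment of multiply mapping reads are not given in the sources, so reads of overlapping antisense genes or near-identical copies cannot be told apart. Symbols, lengths and GC content came from GENCODE M21, an earlier build, by identifier; 4924 identifiers without a match (0.343% to 0.596% of a library's counts) stayed in the tests. Counts were tested with edgeR 4.0.16 (R 4.3.3): TMM, filterByExpr, quasi-likelihood F test, two-sided, Benjamini-Hochberg adjustment over all genes tested. Tumours, cultures and the control contrast were fitted on 4 libraries each, the interaction on 8. Each SE was derived as the size of the log2 fold change over the root of its F value. CPM used library totals; TPM used the longest transcript. The length and GC trend was fitted with mgcv 1.9.3. Alternatives were other scalings (DESeq2 size factors, upper quartile, library totals), no filter, DESeq2 1.42.0, the replicate block, single libraries left out and length-scaled values on TMM library sizes. The members, the related lists and the rules for naming genes were chosen with earlier results of these data known. Named genes were all members, and up to 3 genes of each related list with the largest called changes and at least 1 CPM in the higher group.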

Additional observations from a re-analysis of the deposited data

Results flagged for a closer look

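The effect of mLJZD differed between tumours and cultures in edgeR's interaction test (adjusted p under 0.05) for 34 of the 39 genes, 29 of them higher in tumours (23.8% of all genes tested) and 5 lower (20.5%). Each value below is the log2 effect in tumours minus that in cultures. Among enzymes the differences were Hk1 0.21, Hk2 -0.59, Gpi1 1.13, Pfkl 0.93, Pfkp 0.39, Pfkm -0.84 and Aldoa 1.24, and further Tpi1 1.05, Gapdh 1.17, Pgk1 1.40, Pgam1 0.76, Eno1 1.39, Eno2 1.04, Pkm 0.92 and Ldha 1.35. The carriers gave Slc2a1 1.58 and Slc16a3 0.86. Targets of flux control and of acid-base balance gave Pfkfb3 -1.52, Pfkfb4 -0.83, Pdk1 0.97, Car9 4.15 and Car12 -0.94, the secreted factors Vegfa 0.87 and Adm 3.62, and the hydroxylases Egln1 1.07, P4ha1 0.79 and P4ha2 0.96. Targets of mitophagy, growth and folding gave Bnip3 1.57, Bnip3l 0.30, Ndrg1 1.45, Ankrd37 2.49, Ddit4 1.59, Mxi1 0.45 and Ero1l 0.52. The value of Adm rests on 8 counts in 1 control culture and was -1.44 without that library. The calls of 6 genes ended when single libraries were left out. Adjusted p then reached 0.195 for Hk1 (without saline tumour replicate 1), 0.178 for Pfkp (without mLJZD tumour replicate 2), 0.486 for Pfkfb3 (without mLJZD culture replicate 2), 0.668 for Adm and 0.0992 for Bnip3l (both without control culture replicate 1) and 0.139 for Mxi1 (without mLJZD tumour replicate 1), by edgeR. Scaling by library totals alone also ended the calls of Hk1 (0.04), Pfkp (0.21), Adm (3.45), Bnip3l (0.12) and Mxi1 (0.27). Hk1 was lost as well with DESeq2 size factors, with DESeq2's own test and with no filter, and Pfkp and Bnip3l with no filter. Adm was also lost with the replicate block and, like Pfkfb3, with the trend removed. Hif1a, at -0.22 and not called, was called lower with library totals (-0.40), no filter and both uses of DESeq2.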

How the results depend on the processing

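Shares of all genes called are given here only for the main fits and with the length and GC trend removed. Whether the members followed all genes under the other alternatives was not tested. The counts of members called in each comparison stayed within 1.5 times under every alternative run, with 1 exception. Of the 2 genes lower in tumours, 1 was called with no filter on low counts, with DESeq2 and with all 8 libraries in one fit, since Aldoc no longer passed. Leaving out 1 library gave 25 to 32 members higher and 1 or 2 lower in tumours, 5 to 7 higher and 19 to 21 lower in cultures, 8 or 9 higher and 25 or 26 lower in the control contrast, and 25 to 27 higher and 4 to 6 lower in the interaction. Without tumour mLJZD replicate 1, 10 calls in tumours were lost. The median of the targets in cultures, -0.03, was 0.026 with library totals alone and 0.0011 without control culture replicate 1. With the length and GC trend removed, signs turned in cultures for Pfkp (-0.65) and Pgam1 (0.19), in the control contrast for Eno2 (0.0066), Hif1a (-0.12), P4ha1 (-0.12) and Mxi1 (-0.23), and in the interaction for Kdm3a (0.28); Adm ran there from -1.44 without control culture replicate 1 to 5.76 without mLJZD culture replicate 1. The causes were not tested. The deviations of same-numbered libraries had correlations of -0.19 in tumours and -0.00034 in cultures, beside -0.0073 between saline tumours and control cultures. With 2 libraries a group these values cannot decide whether the numbers pair the libraries. With a replicate block 34 members were higher and 2 lower in tumours. In cultures 6 were higher and 20 lower, Slc2a1 being the call lost, and in the interaction 28 and 5, where Adm was lost. With 2 libraries a group, permuting 1 gene exactly gives no p below 0.333.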

Other observations

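Outside the member and pathway lists, the genes whose log2 CPM over the 8 libraries ran closest to the mean profile of the 20 regulatory targets, ranked by Pearson correlation, were Hmga1, 1500002C15Rik, Fam84b, Per1 and Csrnp1. No coefficient is given, since the libraries fall into 4 clusters. Hmga1, an architectural chromatin protein, had 574 and 584 CPM in saline tumours, 794 and 790.1 CPM in mLJZD tumours, 643 and 655 CPM in control cultures and 645 and 676 CPM in mLJZD cultures. Per1, a clock gene, had 78.7 and 74.4 CPM, 109 and 122 CPM, 88.3 and 91.4 CPM and 83.5 and 85.4 CPM in the same order of groups. Both were highest in mLJZD tumours, but the ranking itself picks genes that run like the mean profile, so this is no separate result. That profile did not stand for each target, since 11 of the 20 were highest in mLJZD tumours.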
